A study of Mus musculus with 8 samples.

Results

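The mitochondrial ribosomal proteins were taken as every probe whose gene symbol in the platform annotation is Mrpl or Mrps followed by a number. This gave 132 of the 45281 probes on the array, for 76 genes, of which 48 carry the symbol Mrpl (large subunit) and 28 the symbol Mrps (small subunit). Of the 132 probes, 114 reached a detection p-value under 0.05 on 2 or more of the 8 arrays, 110 of them on all 8, and 18 did so on none. The brightest detected probe stood for a gene, so that 73 genes were tested, 46 of the large and 27 of the small subunit. Mrpl19, Mrpl32 and Mrps14 were detected on no array.

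The arrays hold RNA of mouse embryonic stem (ES) cells of the R1 line that are FGF4-/-, so that all 4 groups lack the autocrine growth factor Fgf4. All cells carried 1 shRNA vector each. They spent a night in N2B27, a medium without serum, to which BMP4 (10 ng/ml) had been added. With FGF4 at 20 ng/ml for 3 days there were 2 arrays of cells with shRNAs against Mp1 (shMp1Lib and shMP1G) and 2 arrays of cells with the control shRNAs shRnd1 and shRnd2. Cells with these control shRNAs were also kept in LIF at 10 u/ml, on 2 arrays, or without added growth factor, on another 2. Mp1 is the product of Lamtor3, a scaffold of MEK and ERK on late endosomes, and the series asked what its loss does to the differentiation that FGF4 drives. By the titles the 2 arrays of a group carry different shRNAs, so the spread behind each p-value includes any difference between shRNAs. Each shRNA has 1 array per group, so differences between arrays, cultures and shRNAs cannot be told apart. In these bulk samples fewer cells of a type and less RNA per cell cannot be told apart.

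Mitochondrial ribosomes make the few proteins that mitochondrial DNA encodes, all of them subunits of the respiratory chain and ATP synthase. Their ribosomal RNAs come from mitochondrial DNA, while all of their proteins are encoded in the nucleus, made in the cytosol and imported. Nuclear respiratory factors and Ets-family factors such as GABPA are known regulators of many nuclear genes for mitochondrial proteins.

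Several facts of the whole series bear on the values. The Lamtor3 probe was detected on 0 arrays (lowest detection p-value 0.57) and no probe was named Fgf4, so neither the knockdown nor the deletion was checked. Socs3, a target of LIF signalling, had an intensity of 2153 and 2227 on the arrays labelled as without growth factor against 183 and 237 on those labelled LIF, which goes against these labels. Below, LIF and no growth factor are names of arrays by these labels, which the Socs3 values leave in doubt, and every direction drawn from them rests on the labels. The ES cell marker Pou5f1 lay between 13.57 and 14.10 (normalized log2 intensity) on the 8 arrays, 5 of 10 listed ES markers were tested, and 7 of 10 listed fibroblast markers, the collagen genes Col1a1, Col1a2 and Col3a1 among them, were not detected on enough arrays to be tested. Of the 5 tested ES markers 3 rose with FGF4 against both other control groups (median difference 1.04 against no growth factor and 1.09 against LIF), and of the 3 tested fibroblast markers 2 rose and 1 fell against no growth factor. Their part in the results below was not tested. Between arrays of one group the members varied by an SD of 0.84 log2 units for the Mp1 shRNAs, against 0.19 for the control shRNAs in FGF4, 0.19 for LIF and 0.11 for no growth factor. Over all features these SDs were 0.44, 0.21, 0.29 and 0.18 in the same order, so the Mp1 shRNA arrays differed beyond the members too. These SDs do not tell which of the 2 Mp1 shRNA arrays deviates. By the rule that defined the members, set beforehand, the shMp1Lib array is kept apart below.

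Promoters are shown for 4 of the members on which the results turn. Mrpl14 and Mrps18c passed for FGF4 against LIF, and Mrps21 had the lowest difference of shMp1Lib against shMP1G. All of them were lower by more than 2-fold on shMp1Lib than on shMP1G. Mrpl16 was the one member that passed as higher with FGF4 than on the arrays labelled as without growth factor. Mrpl58 also passed for FGF4 against LIF, and it too was lower by more than 2-fold on shMp1Lib than on shMP1G (-1.72 log2 units). The promoters of Mrpl58 and of Mrps2, highest on shMp1Lib against shMP1G, held none of the searched motifs. They are not printed, so the printed runs do not show how common the motifs are. Each run holds 300 bases, 250 before and 50 after the RefSeq gene start, read 5′ to 3′ on the strand of the gene (RefSeq, build GRCm38.p6). The places are chr17:45686099-45686398 (plus strand), chr3:95871465-95871764 (minus strand), chr5:100798509-100798808 (plus strand) and chr19:11770165-11770464 (plus strand). Capitals mark a match to a searched motif on either strand, an NRF1 motif in Mrpl14 and Mrps21, an Ets motif in Mrps18c and a TATA box in Mrpl16.
Mrpl14: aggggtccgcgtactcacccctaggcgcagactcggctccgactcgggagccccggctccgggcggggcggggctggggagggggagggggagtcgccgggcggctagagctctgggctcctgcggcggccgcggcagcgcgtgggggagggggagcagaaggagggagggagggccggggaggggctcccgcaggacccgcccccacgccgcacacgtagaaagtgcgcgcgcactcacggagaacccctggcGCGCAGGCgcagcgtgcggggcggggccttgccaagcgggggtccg
Mrps21: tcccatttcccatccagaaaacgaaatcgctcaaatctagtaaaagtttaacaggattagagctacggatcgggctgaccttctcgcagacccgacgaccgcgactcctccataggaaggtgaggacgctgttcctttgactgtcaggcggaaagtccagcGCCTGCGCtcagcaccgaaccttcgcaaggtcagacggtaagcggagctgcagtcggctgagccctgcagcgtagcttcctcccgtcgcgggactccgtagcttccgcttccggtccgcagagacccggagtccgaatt
Mrps18c: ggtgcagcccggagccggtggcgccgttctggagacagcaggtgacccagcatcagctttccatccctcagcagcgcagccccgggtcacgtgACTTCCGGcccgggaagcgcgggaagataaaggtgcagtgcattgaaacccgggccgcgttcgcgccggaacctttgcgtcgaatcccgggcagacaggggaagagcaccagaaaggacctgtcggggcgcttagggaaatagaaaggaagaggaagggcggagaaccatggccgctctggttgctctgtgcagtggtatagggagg
Mrpl16: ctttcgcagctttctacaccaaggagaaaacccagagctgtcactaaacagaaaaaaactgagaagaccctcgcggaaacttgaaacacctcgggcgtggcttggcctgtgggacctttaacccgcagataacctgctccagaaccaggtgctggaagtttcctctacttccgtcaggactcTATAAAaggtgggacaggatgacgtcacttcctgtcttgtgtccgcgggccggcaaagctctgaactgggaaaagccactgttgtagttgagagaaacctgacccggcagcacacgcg
Counted from the gene start, the NRF1 match of Mrpl14 begins at base 5, and that of Mrps21 at base -89 and on the other strand. The Ets match of Mrps18c begins at base -157, on the other strand, and the TATA box of Mrpl16 at base -68.

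RefSeq promoters were found for 67 of the 76 members (73 promoters, since some genes have several). The NRF1 motif GCGCANGC stood in 30.1% of the 73 promoters, against 13.2% of 21263 promoters of protein-coding genes and 9.95% of all 32851 promoters. For the Ets motif CCGGAAGT, bound by GABPA and its relatives, the shares were 16.4% against 5.15% and 3.89%. The YY1 motif AAGATGGC had the same member share, 16.4%, against 3.05% and 2.75%, and 8 of its 12 matches lay after the gene start on the strand of the gene. A TATA box (TATAAA) was found in 6.85% of member promoters against 12.6% and 13.6%. Both strands were searched, and none of these motifs contains another. These are matches of letters, not measured binding. The median GC content was 58.7% in member promoters and 56.3% in those of protein-coding genes, and its part in these shares was not tested. The median difference between the shMp1Lib and shMP1G arrays was -0.63 log2 units for the 20 tested members with an NRF1 match and -1.04 for the 45 without one, and -1.003 and -0.987 for the 12 with and the 53 without an Ets match.

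With FGF4, the level of the mitochondrial ribosomal protein genes stayed close to that of the arrays labelled as without growth factor. Of the 73 members, 1 rose and 0 fell, where 11.6% of the 14103 features tested were higher and 11.3% lower (limma, Benjamini-Hochberg adjusted p under 0.05). The median difference was 0.02 log2 units, against -0.02 for all features and 0.03 for the 8933 named ones, and 38 members were higher and 35 lower. Both subunits lay near 0, with medians of -0.01 for the large and 0.04 for the small subunit.

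Mrpl16, a large subunit protein with a bacterial counterpart, was the member that rose. Its normalized log2 intensity was 10.10 and 10.15 with FGF4, 9.76 and 9.58 on the arrays labelled LIF, 9.50 and 9.63 on those labelled as without growth factor, and 9.17 and 9.70 with shMp1Lib and shMP1G. Both FGF4 control arrays lay above all 6 others. The rise over no growth factor was 0.56 ± 0.16 (SE), or 1.47-fold (limma adjusted p = 0.0366). The call was lost without any single array of the FGF4 control or the no growth factor group (adjusted p between 0.113 and 0.219), with each array scaled to its median (0.0681), with all 8 arrays in the fit (0.132), and with the control shRNA as a block (0.0571).

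Next in size among the members that did not pass were Mrpl50, at 0.45 ± 0.18 (adjusted p = 0.118), and Mrps10, at 0.40 ± 0.16 (0.117). Mrps10, a small subunit protein with a bacterial counterpart, had levels of 11.61 and 11.43 with FGF4 and of 11.12 on both arrays without growth factor. At the other end stood Mrpl58, at -0.51 ± 0.21 (0.126), and Mrpl45, at -0.40 ± 0.17 (0.131). Mrpl58, also known as Ict1, is a peptidyl-tRNA hydrolase of the large subunit that frees stalled ribosomes, and Mrpl45 lies near the exit of the peptide tunnel, where the ribosome meets the inner membrane.

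**Figure D1:**
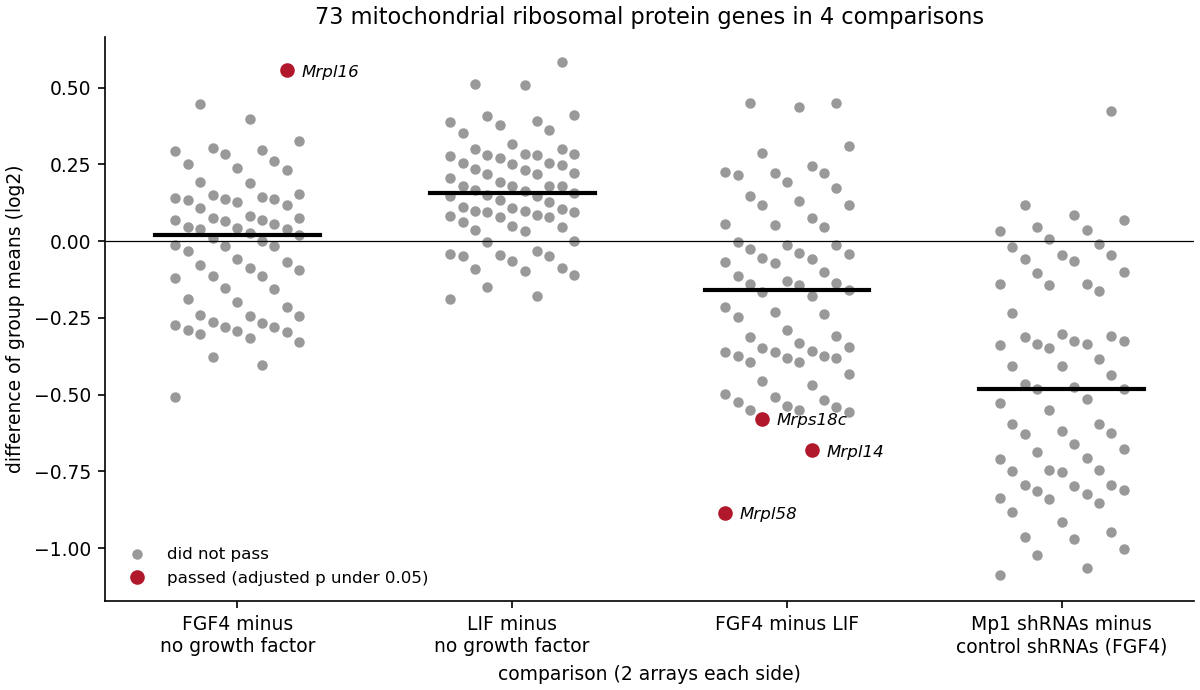
Difference of group means (log2) for each of the 73 genes in 4 comparisons; a point is a gene, a bar the median, and red marks genes past an adjusted p of 0.05. Mrpl16 passed with FGF4 against no growth factor, Mrpl58, Mrpl14 and Mrps18c with FGF4 against LIF, and 0 genes passed in the other comparisons, although the median with the Mp1 shRNAs lay at -0.48.

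The arrays labelled LIF and no growth factor showed no member that passed in either direction. That comparison had few calls in all, 0.0425% of features higher and 0.0922% lower. At an unadjusted p under 0.05 there were 4 members and 1814 features. Of the 73 members, 59 were higher and 14 lower on the arrays labelled LIF, with a median of 0.16 against 0.00 for all features and 0.04 for named ones. Mrpl55, a subunit protein found in animal mitochondria, was the highest at 0.58 ± 0.22 (limma adjusted p = 0.339), followed by Mrpl33 at 0.51 ± 0.20 (0.350), and Mrpl44 and Mrpl2 were the lowest at -0.19 ± 0.15 (0.610) and -0.18 ± 0.17 (0.666). The LIF shRnd1 array held most of the shift: 42 of the 73 members had their highest value there, and the median against the mean of the 6 control shRNA arrays was 0.19 on it and 0.00 on the LIF shRnd2 array. Without LIF shRnd1 the members' median was 0.052, and without LIF shRnd2 it was 0.23, with 1 member that rose where 851 of 14103 features passed in either direction. The shift of the members relative to all features was 0.15 with quantile normalization and 0.17 with each array scaled to its median, a scaling that moved the median of all features by -0.19 and the members' own median to -0.01.

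Between the FGF4 arrays and those labelled LIF, 0 members rose and 3 fell, where 11.7% of features were higher and 11.9% lower. All 3 read highest on the LIF arrays and lowest on the shMp1Lib array. The members' median was -0.16 against -0.01 for all features, with 20 higher and 53 lower. This comparison shares its FGF4 and LIF arrays with the preceding ones.

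Mrpl58 had normalized log2 intensities of 9.17 and 8.77 with FGF4, 10.09 and 9.63 on the arrays labelled LIF, and 9.48 on both arrays labelled as without growth factor. Its FGF4 and LIF values did not overlap, and those without growth factor lay between them. The fall of 0.89 ± 0.21 (limma adjusted p = 0.0176) corresponds to 1.85-fold. Mrpl14, a protein of the interface between the subunits, read 10.50 and 10.20 with FGF4, 11.26 and 10.80 with LIF, and 10.66 and 10.62 without growth factor. Again the groups did not overlap, and Mrpl14 fell by 0.68 ± 0.20 (adjusted p = 0.0421). Mrps18c, a small subunit protein with a bacterial counterpart, read 11.37 and 11.18 with FGF4, 11.99 and 11.72 with LIF, and 11.66 and 11.55 without growth factor. It fell by 0.58 ± 0.17 (0.0411).

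The direction of calls in this comparison depended on the scaling. With each array scaled to its median, the median of all features moved by 0.22, the 3 members above no longer passed (adjusted p = 0.055, 0.132 and 0.163 for Mrpl58, Mrpl14 and Mrps18c), and 3 others rose in their place, Mrpl16 by 0.72 (0.0238), Mrpl50 by 0.69 (0.0258) and Mrps10 by 0.65 (0.0415). Relative to all features the members' median was -0.15 with quantiles and -0.21 with array medians. The array left out moved the calls too, among members and among all 14103 features (3325 of which passed with all arrays, in either direction). Without the LIF shRnd1 array 0 members passed, with 2636 features, and without LIF shRnd2 7 fell, with 4110. Without FGF4 shRnd1 4 members fell, with 2043 features, and without FGF4 shRnd2 1 fell, with 1834. Without either array labelled as without growth factor 1 member fell, with 2685 features. Among members that did not pass with quantiles, Mrpl35 (-0.56 ± 0.18, adjusted p = 0.0593) and Mrpl51 (-0.55 ± 0.21, 0.0964) were lowest and Mrpl16 (0.45 ± 0.16, 0.0742) and Mrpl50 (0.45 ± 0.18, 0.112) highest.

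Mp1 shRNAs against control shRNAs in FGF4 gave 0 members that passed in either direction, with 0.0638% of features higher and 0.0355% lower. At an unadjusted p under 0.05 there were 7 of 73 members and 2027 of 14103 features, and the lowest adjusted p of a member was 0.25. The median difference was -0.48, with 8 members higher and 65 lower, against 0.05 for all features. Mrpl34 had the lowest difference, -1.09 ± 0.58 (limma adjusted p = 0.399), then Mrps21 at -1.06 ± 0.68 (0.453). Mrpl57, detected on 3 arrays, was highest at 0.42 ± 0.21 (0.379), then Mrps31 at 0.12 ± 0.17 (0.721).

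The 2 Mp1 shRNA arrays were not alike in these genes. On the shMP1G array the members lay close to the control shRNAs in FGF4, with a median difference of -0.05 and a range from -0.42 to 0.48, and 0 of 73 differed by more than 2-fold. Few features did so there (56 of 14103 lower and 100 higher), so this count says little about the members. On the shMp1Lib array the median difference from those controls was -0.93, and 33 of 73 were lower by more than 2-fold, as were 1086 of 14103 features. A fit without shMp1Lib gave 0 member calls, where 28 of 14103 features passed, and one without shMP1G, in which the shMp1Lib array alone stood for its group and was assumed to vary like the other groups, gave 47 members that fell, where 2841 of 14103 features passed in either direction.

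**Figure D2:**
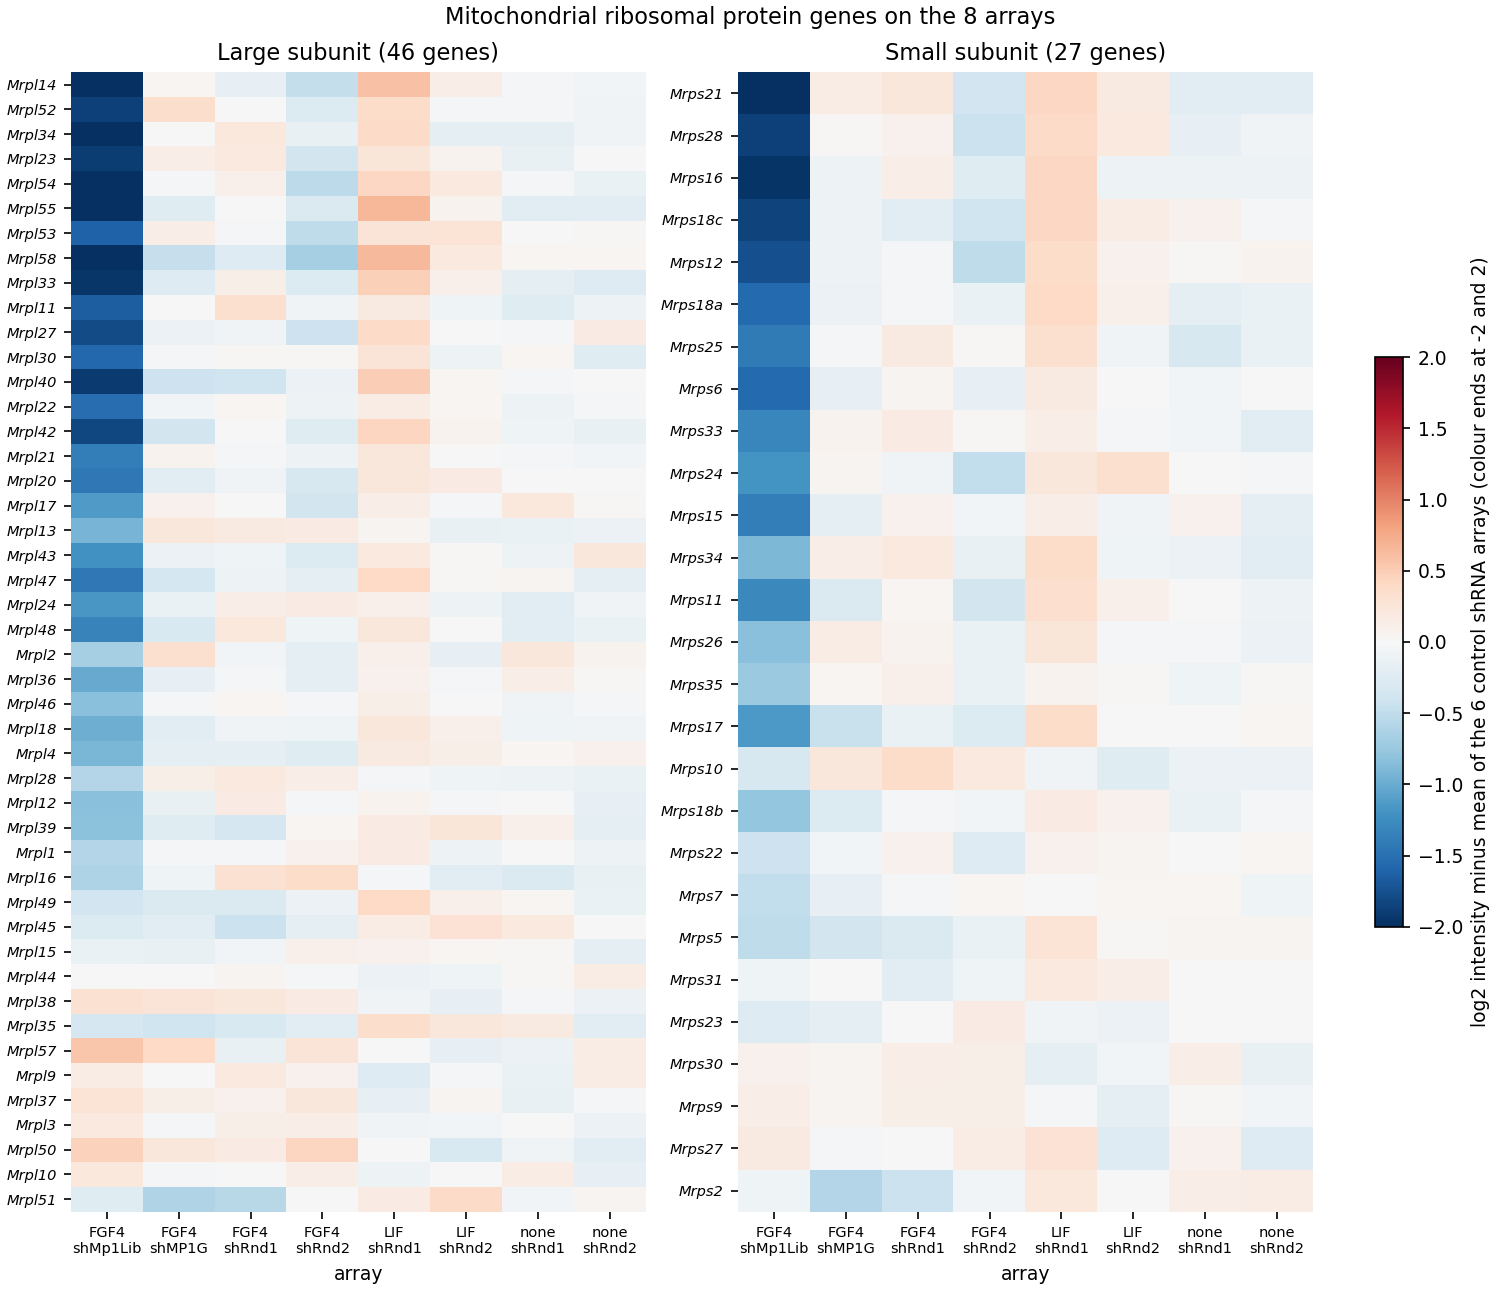
Each row is a member and each column an array; colour gives the log2 intensity minus the gene's mean over the 6 control shRNA arrays, and rows are ordered by the difference between the shMp1Lib and shMP1G arrays within each subunit. The shMp1Lib column is blue for most genes of both subunits and near white or red for the lowest rows, and the shMP1G column is pale throughout.

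The difference between the shMp1Lib and shMP1G arrays has 1 array on each side and no test, and array and shRNA cannot be told apart in it. Its median over the 73 members was -0.99 log2 units (quartiles -1.48 and -0.09), against 0.09 for all features and 0.01 for named ones. Of the members, 35 were lower by more than 2-fold on shMp1Lib, where 7.23% of all features and 8.84% of named features were. Higher by more than 2-fold there were 0 members and 271 of all 14103 features, of which 41 were named. The shMp1Lib array held the lowest of the 8 values for 56 of the 73 members, where this was so for 23.3% of all features and 28.1% of named ones. The large and the small subunit had medians of -1.01 and -0.98 and with 34 of 46 and 22 of 27 genes lowest there.

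The members were spread widely in this difference. On the log2 scale 18 were lower by more than 1.5, 17 by 1 to 1.5, 16 by 0.5 to 1 and 2 by 0.25 to 0.5, while 18 lay within 0.25 of 0 and 2 were higher by more than 0.25. Mrps21, a small subunit protein with a bacterial counterpart, was lowest: it read 8.09 on shMp1Lib and 10.67 on shMP1G, with FGF4 controls at 10.75 and 10.14, LIF arrays at 10.94 and 10.71, and arrays without growth factor at 10.33 and 10.31. All 7 other arrays lay above 10, and the difference from shMP1G was -2.58, or 5.98-fold. Mrpl14, whose promoter is printed above, read 8.30 on shMp1Lib and 10.72 on shMP1G, a difference of -2.42, and its lowest other value was 10.20.

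Next in order were Mrpl52, with 9.74 on shMp1Lib against 11.97 on shMP1G (-2.22), and Mrpl34, with 8.56 against 10.69 (-2.13). Mrpl23, a protein at the exit of the peptide tunnel, read 10.35 against 12.39 (-2.04), and Mrpl54 read 9.47 against 11.48 (-2.01). In all 6 of these genes the shMp1Lib value was the lowest of the 8. The Mrpl44 gene, which encodes a large subunit protein with a ribonuclease-like fold, was level on all arrays: it read 10.13 on shMp1Lib and 10.11 on shMP1G, with FGF4 controls at 10.16 and 10.10, LIF arrays at 9.99 and 10.04, and arrays without growth factor at 10.14 and 10.26. Those 8 values spanned 0.27, the smallest range of any member over the 8 arrays.

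Higher on shMp1Lib than on shMP1G were Mrps2 (9.49 against 8.997, a difference of 0.50), Mrpl51 (6.40 against 6.04, 0.37) and Mrpl10 (11.75 against 11.51, 0.24). Mrpl10 is a protein of the stalk that recruits translation factors, and its partner on the stalk, Mrpl12, read 11.48 on shMp1Lib against 12.16 on shMP1G (-0.69), with 12.48 and 12.26 in the FGF4 controls. Mrpl3, a gene in which human mutations cause cardiomyopathy, read 10.90 against 10.68 (0.22). Mrps22, a small subunit protein, read 10.00 against 10.36 (-0.36).

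Mrps12, the counterpart of a bacterial protein of the decoding centre, read 9.53 on shMp1Lib and 11.19 on shMP1G (-1.66). The 3 members of the Mrps18 family, related proteins that sit in different places of the mammalian mitoribosome, differed among themselves. Mrps18c read 9.72 against 11.47 (-1.76) and Mrps18a 8.77 against 10.20 (-1.43), while Mrps18b read 11.16 against 11.67 (-0.51). In the human mitoribosome the Mrps18a protein is part of the large subunit despite its name. Like all members it is counted here by its symbol, and the place of the other proteins was not checked.

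**Figure D3:**
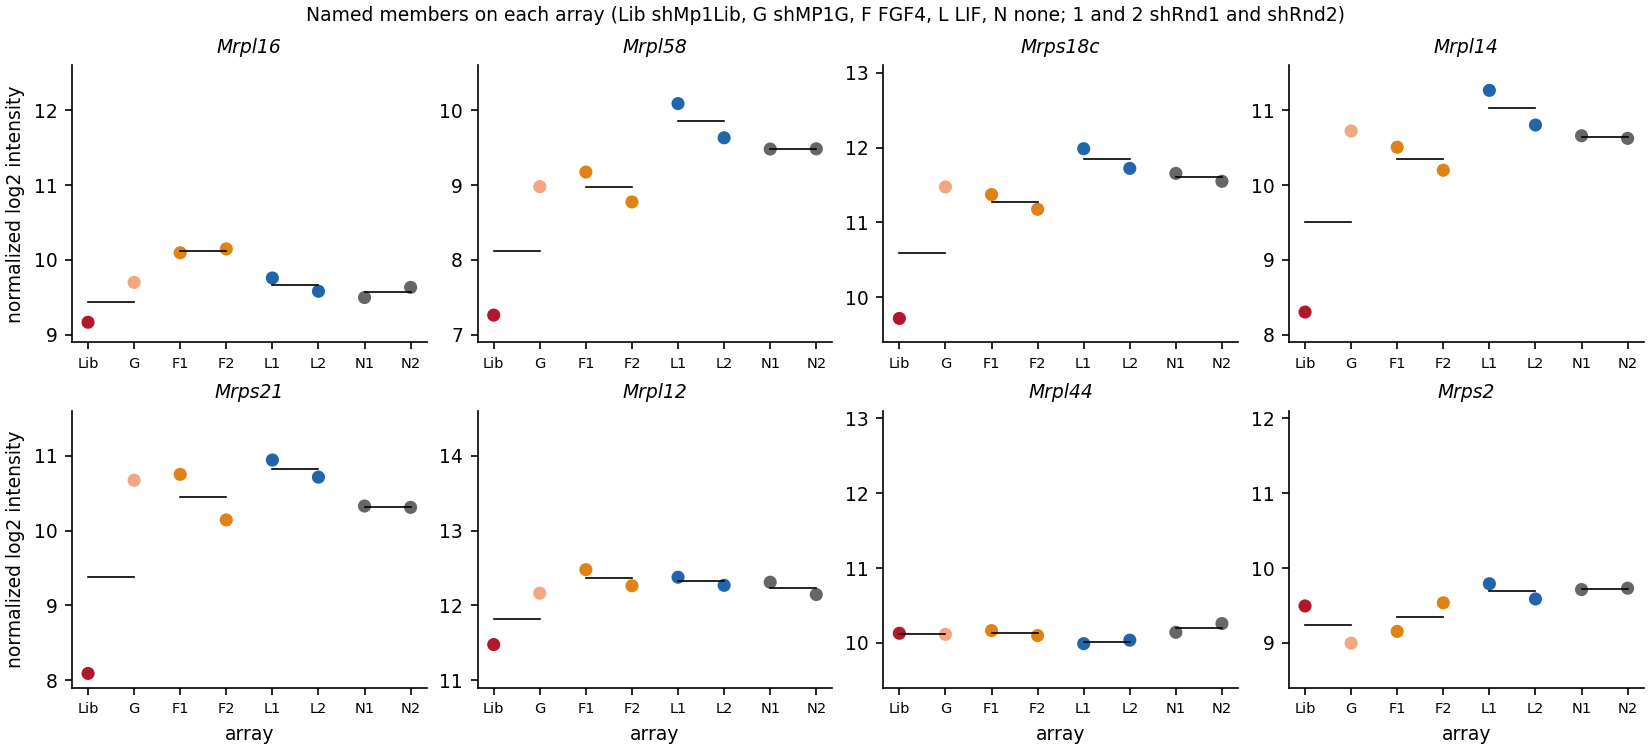
Normalized log2 intensity of 8 members on each array, with lines at group means; every panel spans the same number of log2 units. Mrps21, Mrpl14, Mrps18c and Mrpl58 drop on the shMp1Lib array (Lib), Mrpl12 less so, Mrpl44 is level between 9.99 and 10.26, and Mrps2 reads higher on Lib than on shMP1G (G).

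Several genes had more than 1 detected probe (27 genes), and for 22 of them all probes lay on one side of 0 in the difference between shMp1Lib and shMP1G. For FGF4 against no growth factor this was so for 19 of 27. Mrpl38 had probes that disagreed: the bright one read 12.34 and 12.29 on shMp1Lib and shMP1G (0.05), and a dimmer one 6.03 and 7.50 (-1.47). Of 7 probes for Mrpl15 the brightest gave 0.01 and the others from -0.65 to 0.21. Mrpl51 is counted as higher by its brightest probe, while its 3 probes ran from -1.10 to 0.37, and for Mrps25 they ran from -1.39 to -0.04. Probes agreed closely in Mrps12 (-1.74 and -1.66), Mrps33 (-1.49 and -1.38) and Mrpl43 (-1.09 and -1.03). The 3 probes of Mrpl48 ran from -1.26 to -1.03. Probes on one side but spread apart were those of Mrps10 (4 probes, -0.97 to -0.28), Mrpl49 (4 probes, -0.96 to -0.03) and Mrps5 (2 probes, -0.80 and -0.15). So were those of Mrpl1 (2 probes, -0.56 and -0.19) and Mrpl47 (2 probes, -1.09 and -0.51). Every detected probe of Mrpl1, Mrpl13, Mrpl18, Mrpl33, Mrpl47, Mrps7, Mrps11, Mrps15, Mrps18b and Mrps26 read lower on shMp1Lib, and every one of Mrpl3, Mrpl9, Mrpl10 and Mrpl37 higher. Probes of Mrps23 (-0.06 and 0.00) and of Mrps31 (-0.16 to 0.03) lay on both sides of 0.

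**Figure D4:**
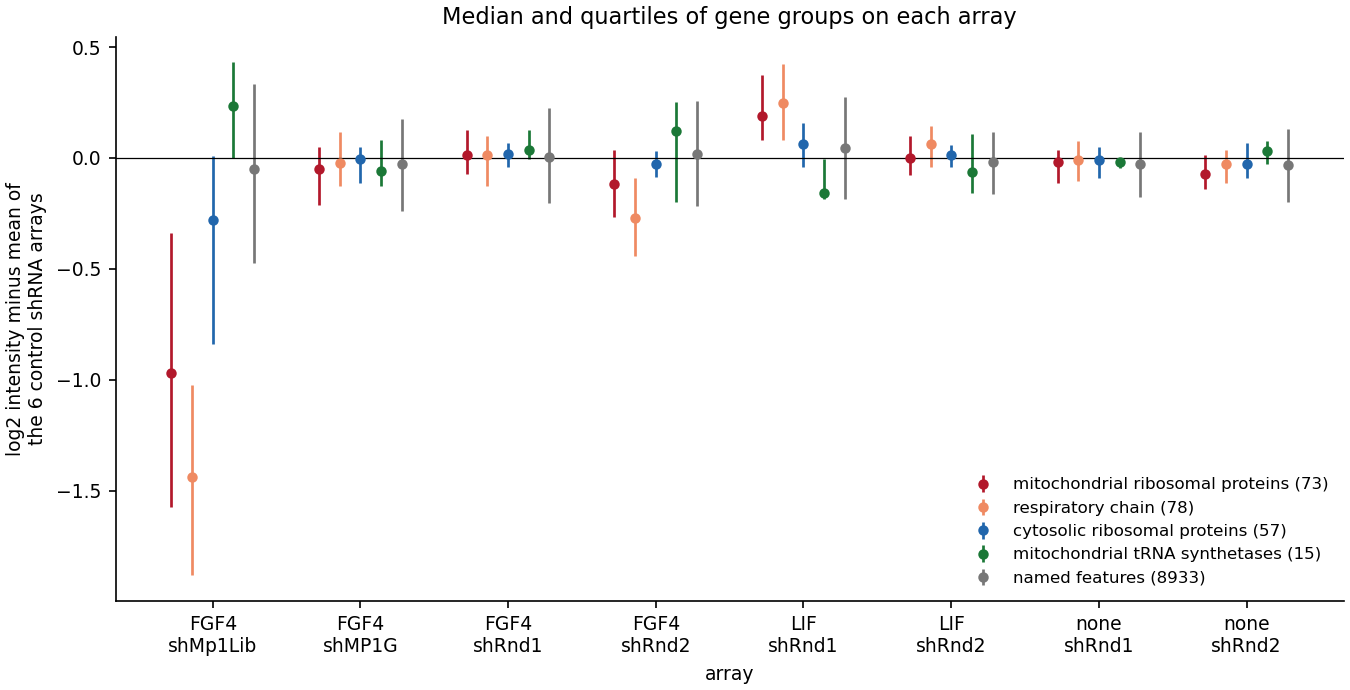
Median (points) and quartiles (lines) of the log2 intensity minus the mean of the 6 control shRNA arrays, for 5 groups of genes on each array. On the shMp1Lib array the mitochondrial ribosomal proteins lie at -0.97, the respiratory chain at -1.44, cytosolic ribosomal proteins at -0.28 and mitochondrial tRNA synthetases at 0.23, while on shMP1G all 5 groups lie near 0. The tRNA synthetase group includes the amidotransferase subunits Qrsl1, Gatb and Gatc.

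Other lists of mitochondrial genes are given for the same pair of arrays, without a test of any difference between lists. Of the nuclear genes for the respiratory chain, which includes the complexes that mitochondrial ribosomes serve, 55 of 78 tested were lower by more than 2-fold than on shMP1G (median -1.43). Cytosolic ribosomal proteins had 12 of 57 (median -0.30), mitochondrial tRNA synthetases 0 of 15 (median 0.29), translation factors 0 of 10 (median -0.09) and assembly factors of the mitoribosome 1 of 17 (median 0.13). The assembly factor was Mpv17l2, which read 8.56 against 9.72. The list of tRNA synthetases also holds Qrsl1, Gatb and Gatc, which are subunits of a tRNA amidotransferase. In the list for mitochondrial DNA expression 3 of 11 were lower by more than 2-fold, Slirp (9.51 against 11.65), which binds mitochondrial mRNAs, Hsd17b10 (10.448 against 12.003), a subunit of mitochondrial RNase P, and Ssbp1 (9.13 against 10.30), the single-strand DNA-binding protein. The list of mitoribosomal proteins known by other symbols also holds Mrpl58 under its older name Ict1, a member counted above, which read 7.26 against 8.98. Of the others, Chchd1 read 12.77 against 13.84, while Dap3 (13.28 against 12.96), Ptcd3 (9.58 against 8.83) and Gadd45gip1 (6.54 against 6.53) did not read lower, and Aurkaip1 had no named probe.

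In the comparisons between growth factors, single genes of these lists passed. Over all features, 11.6% were higher and 11.3% lower with FGF4 against no growth factor, and 11.7% and 11.9% against LIF. No list was tested against these shares. The translation initiation factor Mtif3 rose by 0.51 ± 0.15 with FGF4 against no growth factor (limma adjusted p = 0.0452) and was the 1 call among 10 translation factors. Among 17 assembly factors the GTPase Noa1 rose by 0.57 ± 0.16 (0.0388) and the rRNA methyltransferase Nsun4 fell by 0.64 ± 0.16 (0.0218). Polg, the mitochondrial DNA polymerase, rose by 1.13 ± 0.26 (0.0149) as 1 of 11 genes for mitochondrial DNA expression, while among 4 tested regulators the Myc probe also passed (0.65 ± 0.15, 0.0172). That probe was detected on 3 arrays and read 5.51 and 5.57 with FGF4 against 4.97 and 4.81, so it entered the test only through FGF4 arrays and its call is no support for a change. None of the 15 genes in the list of tRNA synthetases passed there. Against LIF, Gadd45gip1, a protein of the large subunit under another symbol, fell by 0.96 ± 0.20 (0.0105). Mtif3 rose by 0.55 ± 0.15 (0.0320) and Noa1 by 0.58 ± 0.16 (0.0353) in that comparison too, which shares its FGF4 arrays with the preceding one. The GTPase Gtpbp10, an assembly factor, rose by 0.93 ± 0.25 (0.0276), the tRNA synthetase Aars2 fell by 0.60 ± 0.17 (0.0368) as 1 of 15 in its list, and the dim Myc probe passed again (0.65 ± 0.15, 0.0171). With LIF against no growth factor and with the Mp1 shRNAs against the controls, 0 genes of these lists passed, in comparisons whose shares of called features are given above. The respiratory chain had 1 gene that rose and 6 that fell of 78 with FGF4 against no growth factor, and 1 and 13 against LIF, while cytosolic ribosomal proteins had 0 and 2 of 57 in each of these.

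Smaller differences of the same members were seen between other arrays. Across the 73 members, the difference between the shMp1Lib and shMP1G arrays and that between the FGF4 shRnd1 and shRnd2 arrays had a Pearson r of -0.77 and a Spearman rho of -0.77. Members are not independent replicates, and the 4 arrays share their normalization. For the FGF4 arrays the relation was computed over members only, so whether it is particular to them was not tested. The 35 members lower by more than 2-fold on shMp1Lib had a median of 0.29 for FGF4 shRnd1 minus shRnd2, with 32 of 35 higher on shRnd1, and the 18 members within 0.25 of 0 had a median of -0.14, with 4 of 18 higher. The same 35 members had a median of 0.25 for LIF against no growth factor, with 34 of 35 higher, and the 18 a median of 0.00, with 9 of 18 higher. Features outside the members were not split in this way, so these counts have no share to be set against. Between the LIF arrays the same relation had an r of -0.56 over members and of -0.42 over all 8933 named features, and between the arrays without growth factor it was 0.18 over members. Without the shMp1Lib array the FGF4 shRnd2 array held the lowest value for 28 of 73 members. The span of the genes on the genome showed little relation to the shMp1Lib difference (Spearman rho of 0.16 over 73 genes), with medians of 8.16 kb for the 35 members lower by more than 2-fold and 7.61 kb for the others.

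**Figure D5:**
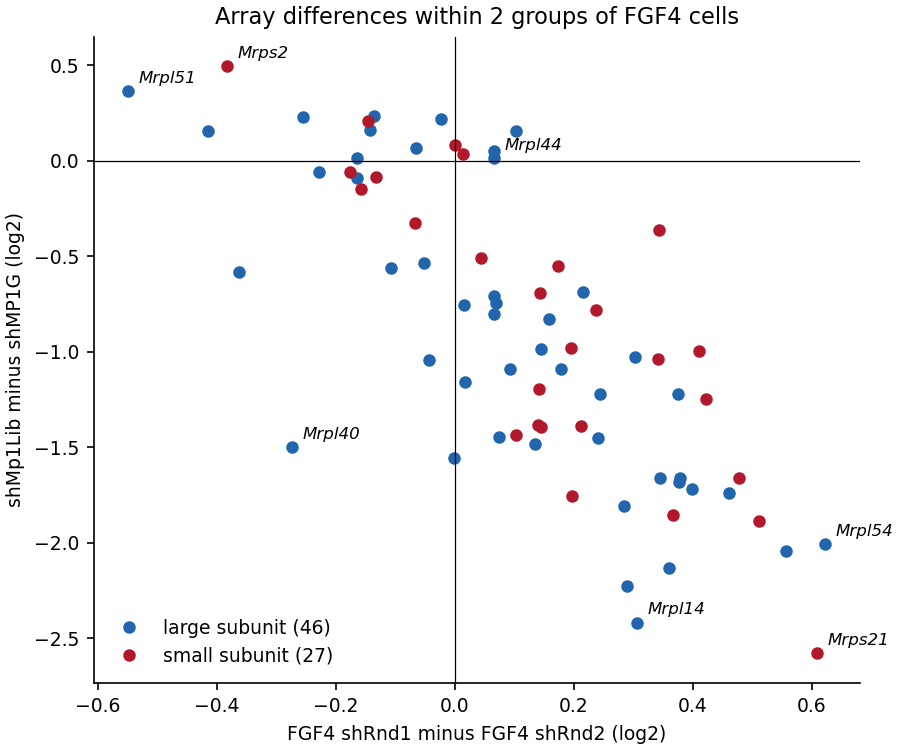
Each point is a member, with FGF4 shRnd1 minus shRnd2 on the x axis and shMp1Lib minus shMP1G on the y axis (both log2). Points run from Mrps2 and Mrpl51 at the upper left to Mrps21 at the lower right, with Mrpl40 apart from the rest (r of -0.77, 73 genes).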

How the data were processed

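RNA of 8 samples (4 groups of 2) was amplified with biotin label and hybridised to Illumina arrays. The deposited non-normalized table pairs an intensity with a detection p-value for every probe and array, per the file headers. In 81.2% of its 362248 intensity cells the decimal point was lost. It was restored from the digits and the detection p-value, after which probes with a detection p-value of 0 were brighter than all others on 8 of 8 arrays. This check is in part built in. No column lacked a sample (0 columns). The authors' deposited value table holds intensity values under probe IDs that did not match (one ID correlated by 0.126 to 0.177 between both, and the median percentile of the members' probes was 55.1 there against 94.3), so it was not used for named genes. Scanner software is not given in the sources used here. Most probes were detected on the shMp1Lib array (17813), and between 15375 and 16471 on each of the other arrays. The number of arrays limits the precision.

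Symbols come from the platform annotation (32245 probes with 1 symbol, 17 with several left unnamed), and 32170 had a RefSeq gene ID, which changed 0 symbols. From these intensities limma 3.58.1 (R 4.3.3, statmod 1.5.0) subtracted background by normexp, its negative controls being inferred from the detection p-values, added 16, made array quantiles equal and took log2. A probe was kept where its detection p-value was below 0.05 on 2 arrays or more, and the brightest stood for its symbol, which left 14103 features. Comparisons between growth factors were fitted with lmFit and eBayes on the 6 control shRNA arrays (3 residual and 5.19 prior degrees of freedom), and that of Mp1 shRNAs on 8 arrays (4 and 4.18). All adjusted p-values are limma's, from two-sided tests, adjusted after Benjamini-Hochberg across the 14103 features, with 0.05 as threshold. The fit was tested on data with known answers. Values are differences of normalized log2 intensity with SE.

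The members and gene lists were chosen with earlier results of these data known. Named were members that passed, the 2 highest and 2 lowest differences of the others in each comparison, the 6 largest falls and 3 largest rises of shMp1Lib against shMP1G, members with several detected probes, and Mrpl3, Mrpl12, Mrpl44, Mrps2, Mrps12, Mrps22 and the Mrps18 genes. Mrpl41 and Mrps36, also planned, had no named probe. Sequences of proteins were planned and are not used here. The treatment note gives Rnd1 for both LIF samples while titles give shRnd1 and shRnd2. Titles were followed.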

Additional observations from a re-analysis of the deposited data

How the results depend on the processing

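Alternatives concerned the background correction, the scaling, the detection filter, the probe per gene, the features adjusted over, the arrays in the fit, weights, and each array left out. Named members that had passed kept their sign under every setting run, though not always their call. With array medians the calls for FGF4 against LIF turned from 3 lower to 3 higher genes, which are other genes. With FGF4 against no growth factor (1 call) there were 2 calls without background correction and 0 with array medians, with all 8 arrays in the fit, and with the shRNA number as a replicate block. Leaving out single arrays gave 0 to 1 calls and medians from -0.053 to 0.075. With LIF against no growth factor the median was -0.013 with array medians, and single arrays left out gave 0 to 1 calls and medians from 0.052 to 0.231. For FGF4 against LIF (3 calls) there were 13 without background correction (3 higher, 10 lower), 6 with detection on all 8 arrays, 1 with no filter, 5 of 114 with every probe a feature, 0 with all 8 arrays, 1 with array weights and 0 to 7 with single arrays left out. Its median was -0.0030 with array medians and -0.287 to -0.062 with single arrays left out. For the Mp1 shRNAs single arrays left out gave 0 to 47 calls and medians from -0.93 (without shMP1G) to -0.05 (without shMp1Lib), against -0.48 as reported, and normalizing without shMp1Lib, which then leaves the comparison, gave -0.05. The median of shMp1Lib against shMP1G was -0.90 without background correction, -0.65 with array medians (-1.01 relative to all features, against -1.08 as reported), -0.91 with no filter and -0.77 with every probe a feature. The shMp1Lib array was then the lowest of 8 for 87 of 114 probes, and with array medians for 50 of 73 genes. Apart from the array left out and the added or removed features, the causes were not tested. The replicate block (shRnd1 or shRnd2) gave Mrpl16 an adjusted p of 0.0571 and left 3 calls for FGF4 against LIF. The number is that of the control shRNA in the titles. Deviations of same-numbered arrays correlated by -0.08, -0.07 and 0.04 across groups over all features, so they were not treated as pairs. Over the 73 members the FGF4 and LIF differences between shRnd1 and shRnd2 had an r of 0.33. Dim probes such as those of Mrpl57 and Mrpl51 limit what can be read at low signal.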
